A study of Mus musculus with 16 samples.

Results

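The immediate early genes followed here were read in tdTomato-positive lung cells of 16 mice. They were Fos, Fosb, Jun, Junb, Egr1, Atf3, Ier2, Nr4a1, Zfp36 and Dusp1. They were taken by symbol, each matched 1 Ensembl gene, and they made up 10 of the 49452 genes in the tables. All 10 were quantified without a failure in every mouse.

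Immediate early genes are transcribed within minutes of a stimulus, without new protein synthesis, through factors such as SRF, ELK and CREB that are already present in the cell. Their products are mostly transcription factors and regulators that shut the same response off, and their mRNAs are short-lived. In lung mesenchyme they respond to growth factors, stretch and injury, and they are also known to be induced when tissue is digested into single cells.

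The mice, male and of a C57BL6 background, formed 4 groups of 4. Acta2-tdT mice carried the inducible Cre Acta2-CreERT2 and the tdTomatoflox reporter, so that cells with smooth muscle actin promoter activity were labelled, and received tamoxifen in food at 400 mg/kg, begun 5 days after the agent. Pdgfra-tdT mice carried Pdgfra-CreERT2 with the same reporter and received 5 tamoxifen injections of 3 mg at 6 weeks of age. In each line 4 mice received saline (mice 1 to 4) and 4 received bleomycin (mice 5 to 8), a drug that injures the lung and leads to fibrosis, and all were taken 14 days later at 11 weeks of age. The lines therefore differed in the route and timing of tamoxifen as well as in the Cre driver, and these cannot be told apart. Cells were released from the left lobe with dispase at body temperature before sorting in all 4 groups, and no undigested sample was analysed here.

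Levels are given as FPKM, which count fragments relative to transcript length and to the mapped fragments of the library, so that they are set per length and can be compared between genes. The summed FPKM of nuclear protein-coding genes differed widely between mice. In the saline mice it was 35602.5 to 57788 for the Acta2-tdT line and 29964 to 59840 for the Pdgfra-tdT line, and in the bleomycin mice 231058 to 463127 and 28512 to 137952. The immediate early genes that passed each test are therefore given on 2 scales, FPKM as deposited and scaled FPKM. In scaled FPKM each mouse was set to the same nuclear protein-coding sum of 49122.5. Single fold changes are given on both scales only in part. For the other lists of genes they are mostly given on the scaled level alone, and the deposited change can differ in direction. In bulk RNA of sorted cells, fewer cells of a type and less RNA per cell cannot be told apart.

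Pdgfra-tdT saline mouse 3 and Pdgfra-tdT bleomycin mouse 5 stood apart from the rest of their groups. Endothelial markers (Pecam1, Cdh5, Kdr and Vwf) held 0.110% and 0.0818% of their nuclear protein-coding sums, against 0.00310 to 0.0208% in the other Pdgfra-tdT mice. Where the genes that passed a test depended on these mice, they are given with and without them. Fold changes are given without them only in part. Smooth muscle markers fitted the Acta2-tdT label, with 0.450 to 0.892% of the sum against 0.00278 to 0.0383% in Pdgfra-tdT mice. Fibroblast markers did not single out the Pdgfra-tdT cells: they held 0.00822 to 0.106% there, and 0.407 to 0.623% in Acta2-tdT bleomycin mice. In the Pdgfra-tdT line, saline mouse 3 and bleomycin mouse 5 held the most of these markers too. They held 0.0929 and 0.106%, against 0.00822 to 0.0384% in the other mice of the line. They also had the most genes at 1 FPKM or more, 10191 and 10942 against 6994 to 8644. The scaled level of Pdgfra itself was 0.873 to 4.95 in Pdgfra-tdT mice and 0.322 to 1.26 in Acta2-tdT mice. As deposited it went the other way after bleomycin. All 5 fibroblast markers, Pdgfra included, were then higher in Acta2-tdT cells (limma adjusted p under 0.05), where 71.0% of all genes were.

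Most of the 10 genes are compact. Their median span was 3427 bases, beside 16465 bases for nuclear protein-coding genes, with a median of 3 exons beside 7. Atf3 spanned 47744 bases and Nr4a1 had 8 exons, both above these coding medians, while Jun, Junb and Ier2 were single-exon genes. The heptamer TATTTAT, the core of AU-rich elements that shorten mRNA life and the element that the Zfp36 protein binds, was in the 3′ UTR of 60% of the 10 genes and of 26.8% of coding genes. The shorter ATTTA was in 90% and 64.2%. The first TATTTAT of Fos, of Zfp36 itself and of Dusp1 is shown in capitals within 29 bases, on the mRNA strand, because these mRNAs stand for the target, the decay factor and a phosphatase of the same response. They lie at chr12:85477103-85477131 (plus strand), chr7:28376966-28376994 (minus strand) and chr17:26506159-26506187 (minus strand) of GRCm38.
Fos: tgttttcaattTATTTATtaagatggatt
Zfp36: agtgggcccttTATTTATgacgactttat
Dusp1: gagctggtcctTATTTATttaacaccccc

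RefSeq promoters (GRCm38.p6) were matched for 8 of the 10 genes, all but Egr1 and Ier2. The cAMP response element half-site TGACG, the core of the sequence that CREB binds, was searched on both strands in the 250 bases before each start. It was in 6 of these 8 promoters, and in 17.8% of all 32851 promoters of that length. Dusp1 held the full element TGACGTCA, which contains the half-site on both strands and was in 1.55% of promoters. The Sp1 box GGGCGG was in 7 of 8 and 32.7%. The AP-1 site TGAGTCA, bound by Fos and Jun proteins themselves, was in 0 of 8 and in 4.46%. The CArG box (CC, then 6 letters A or T, then GG) was in 1 of 8 and in 1.47%, and TATAAA in 1 of 8 and in 12.4%. The 3 promoters with the most half-sites are printed 5′ to 3′ on the gene's strand with TGACG, or its reverse complement CGTCA, in capitals. They are Fos at chr12:85473640-85473889 (plus strand), Nr4a1 at chr15:101266596-101266845 (plus strand) and Dusp1 at chr17:26508520-26508722 (minus strand), the last cut where an annotated exon begins.
Fos: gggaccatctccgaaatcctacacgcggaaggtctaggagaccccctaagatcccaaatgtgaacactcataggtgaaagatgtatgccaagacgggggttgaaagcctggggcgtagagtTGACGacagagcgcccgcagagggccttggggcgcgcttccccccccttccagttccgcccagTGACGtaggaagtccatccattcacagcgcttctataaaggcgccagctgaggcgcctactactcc
Nr4a1: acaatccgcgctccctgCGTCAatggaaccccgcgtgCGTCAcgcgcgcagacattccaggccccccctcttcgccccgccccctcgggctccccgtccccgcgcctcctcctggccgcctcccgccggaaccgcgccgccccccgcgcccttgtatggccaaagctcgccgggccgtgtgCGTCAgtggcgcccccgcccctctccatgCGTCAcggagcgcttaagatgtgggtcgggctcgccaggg
Dusp1: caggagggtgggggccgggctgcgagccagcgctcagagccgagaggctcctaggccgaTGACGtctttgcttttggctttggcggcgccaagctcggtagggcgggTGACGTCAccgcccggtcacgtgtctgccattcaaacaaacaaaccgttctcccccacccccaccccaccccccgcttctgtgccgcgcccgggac
The half-sites of Fos began 129 and 66 bases before its start. Those of Nr4a1 began at 233, 213, 69 and 40 bases, and those of Dusp1 at 191, 143 and 140 bases, all counted from the RefSeq start. A match describes these letters and not a bound site.

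In Acta2-tdT mice the 10 genes together held 0.135 to 0.319% of the nuclear protein-coding sum with saline and 0.164 to 0.241% with bleomycin, so the ranges overlapped. In Pdgfra-tdT saline mice 1, 2 and 4 they held 0.0245, 0.0153 and 0.0180%, and in mouse 3 they held 0.199%. The Pdgfra-tdT bleomycin mice were spread over the whole range, at 0.152% in mouse 5, 0.0569% in mouse 6, 0.0945% in mouse 7 and 0.0152% in mouse 8. The fragments behind these shares, as implied by the Cufflinks bounds, were 161 to 1106 for the low Pdgfra-tdT mice and 1833 to 21129 for Acta2-tdT mice.

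**Figure D1:**
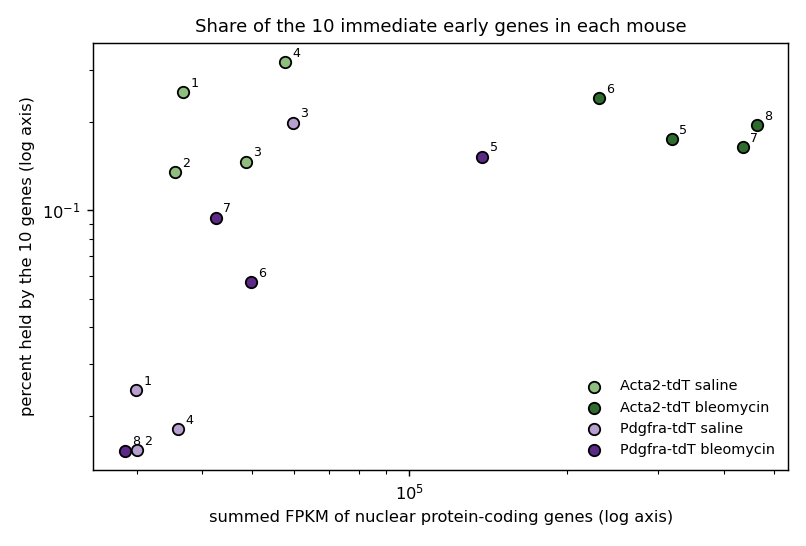
Share of the summed FPKM of nuclear protein-coding genes held by the 10 immediate early genes (percent, log axis) against that sum (FPKM, log axis); each point is 1 mouse, marked with its number. Acta2-tdT mice sit between 0.135 and 0.319% in both treatments although their sums differ, and Pdgfra-tdT saline mouse 3, at 0.199%, lies among them.

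The first comparison asks how labelled Acta2-tdT cells of bleomycin mice differ from those of saline mice. On FPKM as deposited, 9 of the 9 genes tested were higher after bleomycin, where 70.4% of all 12523 genes tested were called higher (86.6% in either direction). In all 9 the 4 bleomycin mice lay above the 4 saline mice, as they did for 67.8% of all genes. The median log2 fold change was 2.84, beside 1.76 for all genes tested. Scaled to the same nuclear protein-coding sum, Fos and Zfp36 fell and the other 7 did not pass the test. The genes called on that scale made up 56.6% of those tested, 32.6% lower and 23.9% higher, and the groups of none of the 9 stood apart where those of 51.1% of all genes did. With quantile normalization of the deposited values, which gives every mouse the same distribution, 4 of the 9 were higher (Junb 1.11, Egr1 1.13, Ier2 1.26 and Atf3 0.94, limma adjusted p 0.0155 to 0.0404), where 44.0% of all genes were. Fos and Zfp36 then had changes of -0.38 and -0.48 that did not pass. A gene was tested if it reached an FPKM of 1 in 4 of the mice compared, which the mice of 1 group could supply alone. Here 3401 of the 12523 genes did so in bleomycin mice only, and none of the 9 were among them, though Atf3 reached 1 FPKM in 1 saline mouse only. Fosb reached an FPKM of 1 in 1 mouse only and did not pass the filter in any comparison.

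Fos and Fosb encode the Fos partners of the AP-1 dimer. Fos was at 25.6, 16.4, 27.1 and 64.9 FPKM in the saline mice and at 76.5, 132, 112 and 148 FPKM in the bleomycin mice. The groups did not overlap, and the log2 fold change was 1.91 (SE 0.47, limma adjusted p = 0.00316), which was 0.15 above the median of all genes. In scaled FPKM the same mice held 34.1, 22.6, 27.5 and 55.1 with saline and 11.8, 28.1, 12.6 and 15.7 with bleomycin. Bleomycin mouse 6 lay within the saline range and the other 3 lay below it. The scaled log2 fold change was -0.99 (SE 0.38, limma adjusted p = 0.0475). This call was lost without saline mouse 1, 3 or 4 or bleomycin mouse 5, 7 or 8 (adjusted p 0.0562 to 0.109) and kept without saline mouse 2 or bleomycin mouse 6. It was also lost with no filter (adjusted p = 0.0672) and with all 16 mice in 1 fit (0.153). Fosb was at 0.0153 to 0.264 FPKM with saline and 0.0668 to 1.07 FPKM with bleomycin. Over all 16 mice its Cufflinks lower bound was 0 in 12.

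Zfp36 encodes tristetraprolin, the RNA-binding protein that speeds the decay of mRNAs with AU-rich elements. It was at 6.25, 3.43, 6.09 and 12.6 FPKM with saline and 24.9, 23.9, 31.1 and 31.3 FPKM with bleomycin, a log2 fold change of 1.94 (SE 0.39, limma adjusted p = 0.000830). In scaled FPKM it was 8.33, 4.73, 6.16 and 10.7 with saline and 3.84, 5.09, 3.50 and 3.32 with bleomycin. Only saline mouse 2 and bleomycin mouse 6 overlapped, and the scaled change was -0.74 (SE 0.26, limma adjusted p = 0.0369). That call was lost without saline mouse 1 or 4 or bleomycin mouse 5, 7 or 8 (adjusted p 0.0649 to 0.0859), with no filter (0.0532) and with all 16 mice in 1 fit (0.134).

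Neutrophil markers were read in the same mice. S100a8, S100a9, Retnlg, Csf3r and Cxcr2, 5 of 5 on the list, were called lower on the scaled scale, where 32.6% of all genes were. As deposited 5 of 5 were called higher, where 70.4% of all genes were. Together they held 2.07 to 3.03% of the nuclear protein-coding sum with saline and 0.262 to 1.79% with bleomycin. In bleomycin mice 5 to 8 the share was 1.79, 1.04, 0.262 and 0.509%, which was not the order of scaled Fos or Zfp36. S100a8 was at a scaled level of 617 to 903 with saline and 78.9 to 551 with bleomycin. Macrophage markers held 0.133 to 0.472% and 0.429 to 1.35%, and the fibroblast markers rose from 0.0407 to 0.0606% to the 0.407 to 0.623% given above. No neutrophil, macrophage or fibroblast marker of the lists was at 0 in an Acta2-tdT mouse. The part of these cells in the changes of Fos and Zfp36 was not tested.

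Jun and Junb encode the Jun partners of AP-1. Junb was at 5.06, 2.76, 4.69 and 12.7 FPKM with saline and 88.5, 40.8, 82.6 and 98.8 FPKM with bleomycin, a log2 fold change of 3.52 (SE 0.48, limma adjusted p = 6.53e-05). In scaled FPKM it was 6.75, 3.81, 4.75 and 10.8 with saline and 13.7, 8.68, 9.32 and 10.5 with bleomycin, a change of 0.68 (SE 0.31, limma adjusted p = 0.0885). The scaled groups overlapped through saline mouse 4, and without it the change was 0.93 and passed (adjusted p = 0.0165). Jun was at 4.29 to 16.5 FPKM with saline and 34.8 to 98.2 FPKM with bleomycin, with a change of 2.55 (SE 0.50) as deposited and -0.26 (SE 0.30, adjusted p = 0.476) scaled. Atf3, a stress-induced factor that dimerises with Jun proteins, went from 0.528 to 2.06 FPKM with saline to 5.00 to 19.1 FPKM with bleomycin. Its changes were 2.60 (SE 0.40) as deposited and 0.35 (SE 0.24, adjusted p = 0.245) scaled.

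Egr1, a zinc finger factor, was at 16.3, 7.22, 3.60 and 9.87 FPKM with saline and 89.0, 62.5, 120 and 166 FPKM with bleomycin, a log2 fold change of 3.50 (SE 0.49, limma adjusted p = 8.43e-05). Its scaled levels were 21.8, 9.96, 3.65 and 8.39 with saline and 13.7, 13.3, 13.5 and 17.6 with bleomycin. The bleomycin mice lay within the saline range, and the scaled change was 0.60 (SE 0.43, adjusted p = 0.263). It passed without saline mouse 1, at 0.98 (adjusted p = 0.0375). Ier2, a small nuclear regulator, had scaled levels of 5.26 to 19.3 with saline and 17.7 to 19.5 with bleomycin. The deposited change of Ier2 was the largest of the 9, 3.63 (SE 0.53, limma adjusted p = 0.000106), and the scaled change was 0.72 (SE 0.42, adjusted p = 0.164). Nr4a1, an orphan nuclear receptor, changed by 2.87 (SE 0.53, adjusted p = 0.000472) as deposited and by 0.27 (SE 0.48, adjusted p = 0.643) scaled.

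Dusp1 encodes the phosphatase that switches off MAP kinases. It was at 14.4, 7.30, 11.8 and 37.2 FPKM with saline and 109, 127, 87.4 and 133 FPKM with bleomycin, a log2 fold change of 2.84 (SE 0.49, limma adjusted p = 0.000300). Scaled, it was at 19.1, 10.1, 11.97 and 31.6 with saline and at 16.8, 26.9, 9.85 and 14.1 with bleomycin. The scaled groups covered nearly the same range, with a change of -0.05 (SE 0.42, adjusted p = 0.919).

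**Figure D2:**
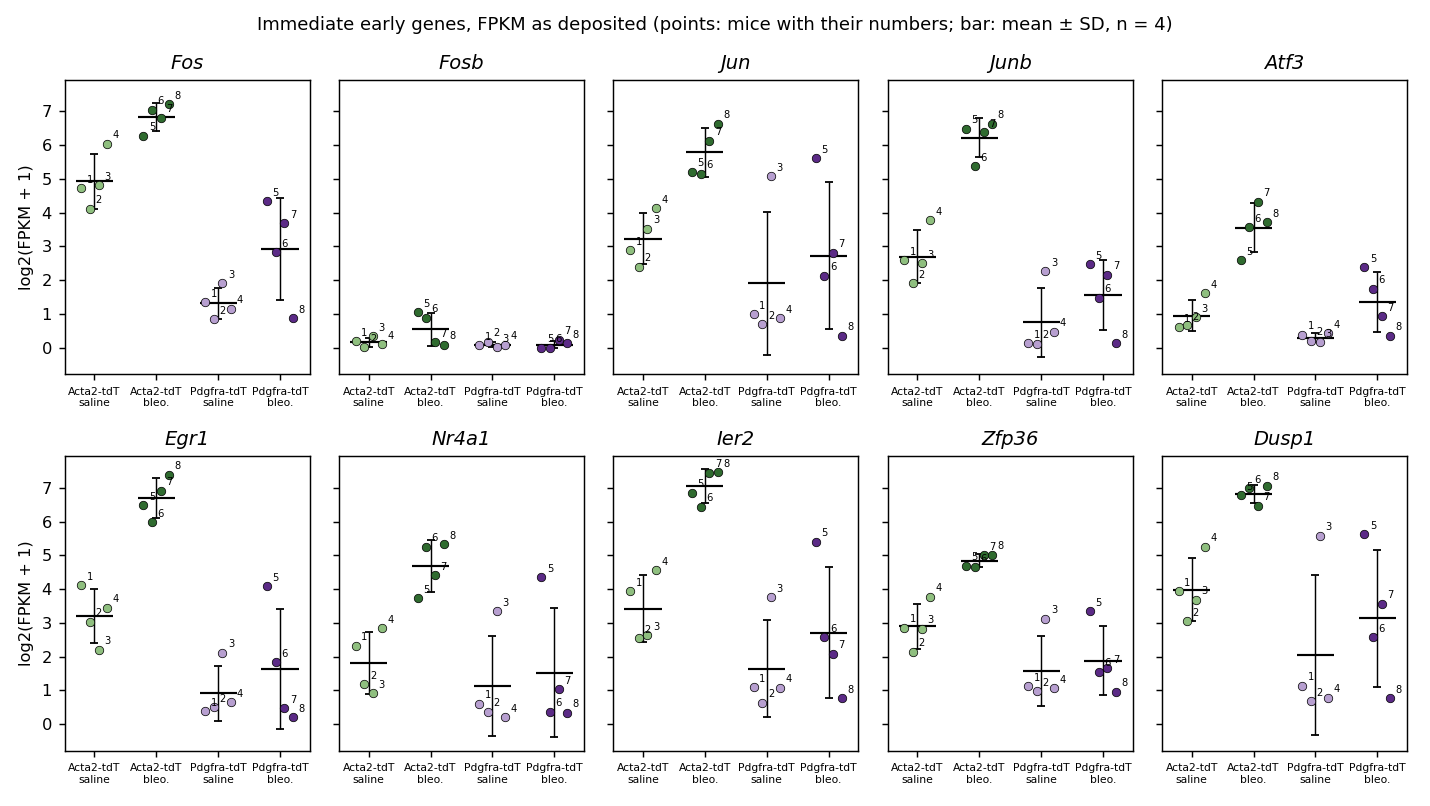
FPKM as deposited of the 10 genes in the 16 mice, as log2(FPKM + 1); points are mice with their numbers, and bars give the mean ± SD of 4 mice. Acta2-tdT bleomycin mice are highest for every gene but Fosb, apart from Jun and Nr4a1, where Pdgfra-tdT bleomycin mouse 5 reaches their range.

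**Figure D3:**
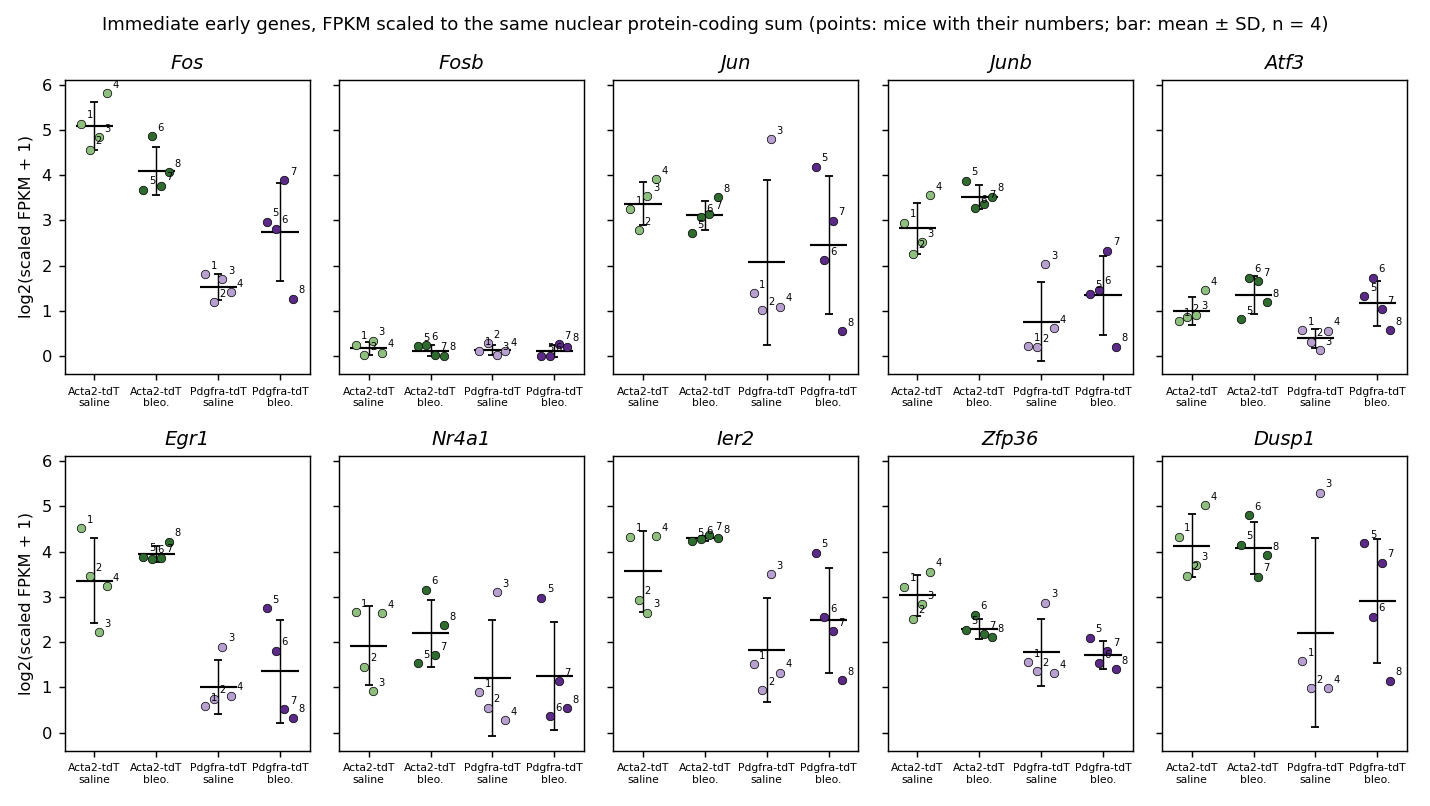
The same genes and mice as log2(scaled FPKM + 1), with the mean ± SD of 4 mice. The mean of Fos is highest in Acta2-tdT saline mice, Egr1 and Ier2 of Acta2-tdT bleomycin mice overlap the saline mice of that line, and Pdgfra-tdT saline mouse 3 lies far above mice 1, 2 and 4 for Jun, Zfp36 and Dusp1.

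Ratios within a mouse do not depend on the scale, and they are given as a description with no test. In Acta2-tdT cells Fos made up 27.5 to 38.2% of the summed FPKM of the 10 genes with saline and 13.7 to 23.8% with bleomycin. Junb was 0.169 to 0.198 of Fos with saline and 0.309 to 1.16 with bleomycin, and it was 0.448 to 0.792 of Jun with saline and 1.01 to 2.44 with bleomycin. Ier2 was 0.192 to 0.560 of Fos with saline and 0.652 to 1.55 with bleomycin. These 4 ranges did not overlap, nor did those of Dusp1 to Fos (0.436 to 0.573 against 0.781 to 1.42), Atf3 to Fos (0.0206 to 0.0363 against 0.0653 to 0.171) and Nr4a1 to Fos (0.0324 to 0.156 against 0.161 to 0.281). The ratio to Fos was thus higher in every bleomycin mouse for 5 of the other 8 genes tested, and so it was for 44.4% of the 9253 other coding genes tested. The ratios of Zfp36 to Fos (0.195 to 0.244 and 0.181 to 0.325), Jun to Fos (0.250 to 0.386 and 0.263 to 0.664) and Egr1 to Fos (0.133 to 0.638 and 0.473 to 1.16) overlapped.

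**Figure D4:**
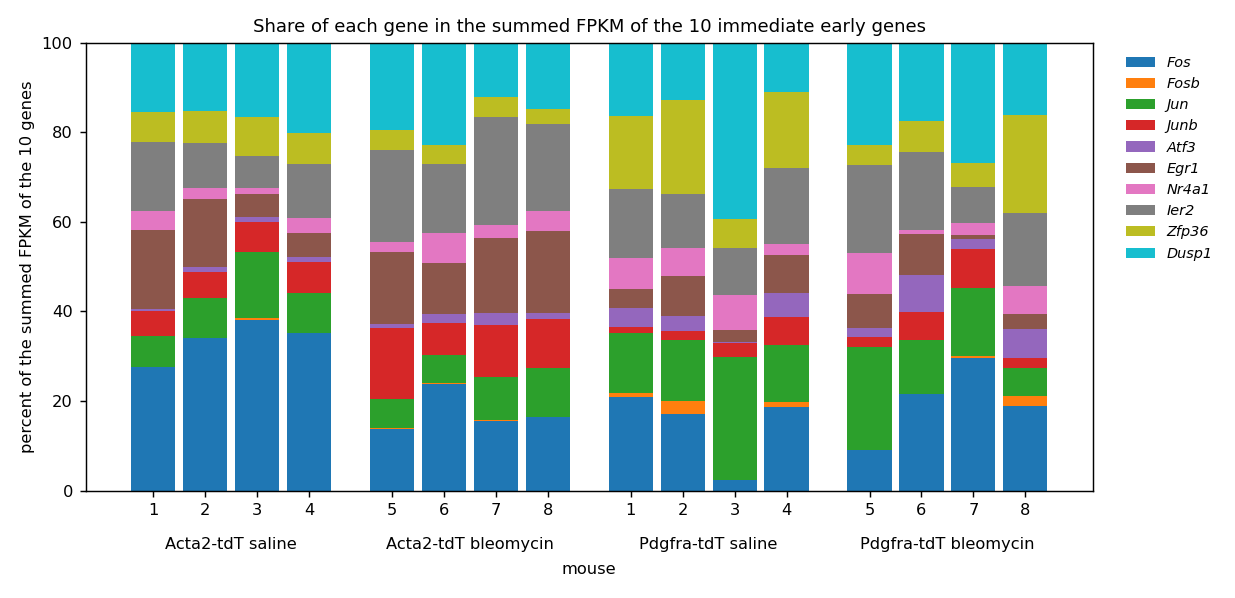
Share of each gene in the summed FPKM of the 10 immediate early genes (percent, bars start at 0), 1 bar for each mouse. In the Acta2-tdT line Fos takes 27.5 to 38.2% with saline and 13.7 to 23.8% with bleomycin, and Dusp1 and Jun take the largest shares in Pdgfra-tdT saline mouse 3.

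Ranked among the 21950 nuclear protein-coding genes of the same Acta2-tdT mouse, Fos stood at percentile 99.1 to 99.6 with saline and 96.8 to 98.7 with bleomycin. Jun stood at 96.5 to 98.0 and at 93.8 to 96.3, and Zfp36 at 95.5 to 97.4 and at 90.0 to 93.1. In these 3 of the 9 genes tested every bleomycin mouse ranked below every saline mouse, as in 14.2% of the 9254 coding genes tested. Junb, at 94.4 to 97.4 and 95.7 to 97.2, and Ier2, at 95.2 to 98.9 and 97.8 to 98.0, had overlapping ranks, as did the other 4.

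The second comparison sets the lines against each other in saline mice. Fos was higher in Acta2-tdT cells and was the 1 gene called of 8 tested, on both scales. The Acta2-tdT saline mice are those of the first comparison. Of all 8153 genes tested, 2.72% were called higher as deposited and 3.2% scaled. The groups stood apart for Fos and Egr1 as deposited and for Fos, Egr1 and Junb scaled, beside 6.56 and 7.75% of all genes. Fos was at 16.4 to 64.9 FPKM in Acta2-tdT and at 1.54, 0.792, 2.74 and 1.22 FPKM in Pdgfra-tdT mice, with no overlap. The log2 fold change was 3.62 (SE 0.47, limma adjusted p = 0.00749) as deposited and 3.55 (SE 0.44, limma adjusted p = 0.00328) scaled. As deposited it was lost without Acta2-tdT mouse 1 (adjusted p = 0.0538) or mouse 3 (0.0744) and with no filter (0.0607), while the scaled call was kept without any of the 8 mice. With mouse number fitted as a block, the deposited call was lost and the scaled call kept.

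The other genes turned on Pdgfra-tdT saline mouse 3. Dusp1 was at 1.21, 0.592 and 0.717 FPKM in Pdgfra-tdT mice 1, 2 and 4 and at 46.8 FPKM in mouse 3, above every Acta2-tdT saline mouse. Jun was at 0.990, 0.623 and 0.838 FPKM in those mice and at 32.7 FPKM in mouse 3. Fos was at 2.74 FPKM in mouse 3, so that Jun was 11.9 times and Dusp1 17.1 times Fos there, against 0.250 to 0.386 and 0.436 to 0.573 times in Acta2-tdT saline mice.

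Without mouse 3, 7 genes passed the filter. Jun, Junb and Egr1 were below 1 FPKM in all 3 remaining Pdgfra-tdT mice (0.0891 to 0.990 FPKM) and were tested only because the Acta2-tdT mice were high, as were 1011 of the 7356 genes. The choice of genes thus favoured a difference in this direction, and the count is a description. All 7 were called higher in Acta2-tdT saline cells on both scales, where 24.4% of 7356 genes were called higher as deposited and 23.5% scaled. The scaled log2 fold changes were then 3.61 for Fos, 2.95 for Dusp1 and 1.62 for Zfp36, with Egr1, Junb, Ier2 and Jun between the last pair (limma adjusted p 0.00132 to 0.0113). With mouse 3 the corresponding scaled changes other than Fos were 1.26 to 2.34 (adjusted p 0.0503 to 0.532). Neutrophil markers held 2.07 to 3.03% of the sum in Acta2-tdT and 0.0352 to 0.152% in Pdgfra-tdT saline mice, and smooth muscle markers 0.450 to 0.653% and 0.0118 to 0.0383%. Their part in these differences was not tested.

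The third comparison sets the lines against each other after bleomycin. As deposited, 9 of 9 genes tested were higher in Acta2-tdT cells, where 71.0% of 11995 genes were called higher and the median log2 fold change of all genes was 1.81. The groups stood apart for 7 of the 9, all but Jun and Nr4a1, and for 56.8% of all genes. With quantile normalization 3 of the 9 were higher (Egr1, Junb and Ier2), beside 17.2% of genes. On the scaled level 3 of the 9 passed, all higher, where 15.8% of genes were called higher. These were Egr1, Junb and Ier2, whose groups stood apart together with those of Zfp36, as did 18.9% of all genes.

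Egr1 was at 62.5 to 166 FPKM in Acta2-tdT bleomycin mice and at 0.149 to 15.98 FPKM in Pdgfra-tdT bleomycin mice. Its scaled levels were 13.3 to 17.6 and 5.69, 2.52, 0.438 and 0.256, with no overlap, and the scaled change was 2.60 (SE 0.55, limma adjusted p = 0.00723). Junb had scaled levels of 8.68 to 13.7 against 1.61, 1.77, 4.04 and 0.161, again apart, with a change of 2.16 (SE 0.47, limma adjusted p = 0.00802). Both calls were kept without any 1 of the 8 mice. Ier2 had scaled levels of 17.7 to 19.5 against 14.7, 4.88, 3.74 and 1.22 and a change of 1.81 (SE 0.59, limma adjusted p = 0.0390). Pdgfra-tdT mouse 5 nearly reached the Acta2-tdT range, and the Ier2 call was kept only without Pdgfra-tdT mouse 5 or 8 (adjusted p 0.0737 to 0.0943 without any other mouse, and 0.115 with no filter).

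The scaled changes of the other 6 genes were 0.19 to 1.36, with adjusted p of 0.107 to 0.683. Fos, which set the lines apart most with saline, had a scaled change of 1.36 (SE 0.61, limma adjusted p = 0.107) after bleomycin. Without Pdgfra-tdT mouse 5, Nr4a1 passed as well (1.51, adjusted p = 0.0111), while 29.7% of all genes were then called higher. Macrophage markers held 0.429 to 1.35% of the sum in Acta2-tdT and 1.23 to 3.27% in Pdgfra-tdT bleomycin mice, neutrophil markers 0.262 to 1.79% and 0.0281 to 0.106%, and their part in these differences was not tested.

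The fourth comparison asks what bleomycin changed in Pdgfra-tdT cells. None of the 6 genes tested passed limma's test on either scale, and none of the 6 had an unadjusted p under 0.05. Of all 7275 genes, 0.124% were called as deposited and 0.137% scaled, and 312 and 324 genes had an unadjusted p under 0.05. The groups of none of the 6 stood apart, beside 2.58 and 2.27% of all genes. Fos was at 0.792 to 2.74 FPKM with saline and at 19.2, 6.10, 11.9 and 0.825 FPKM with bleomycin. Bleomycin mice 5, 6 and 7 lay above every saline mouse and mouse 8 lay among them. The log2 fold change of Fos was 1.62 (SE 0.73, adjusted p = 0.791) as deposited and 1.204 (SE 0.63, adjusted p = 0.776) scaled.

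The other 5 genes tested, Jun, Junb, Ier2, Zfp36 and Dusp1, had scaled changes of -0.07 to 0.70 with SE of 0.51 to 1.05. These depended on single mice. Leaving out 1 mouse at a time gave scaled changes of 0.28 to 1.73 for Dusp1, 0.17 to 1.225 for Ier2 and -0.22 to 0.30 for Zfp36. As deposited, the changes without saline mouse 3 were 2.27 for Dusp1, 1.77 for Ier2 and 0.82 for Zfp36. With it they were 1.09, 1.06 and 0.31. Junb was at 0.101, 0.0891 and 0.394 FPKM in saline mice 1, 2 and 4 and 3.79 FPKM in mouse 3, and at 4.53, 1.79, 3.50 and 0.0935 FPKM with bleomycin. Mouse 8 was thus as low as the low saline mice for both Fos and Junb. Egr1, Atf3 and Nr4a1 passed the filter in no more than 3 of these mice and were tested only with the filter left off. Atf3 was at 0.303, 0.154, 0.123 and 0.350 FPKM with saline and 4.22, 2.35, 0.910 and 0.284 FPKM with bleomycin, and without the filter it had an unadjusted limma p of 0.0358 as deposited and 0.0311 scaled (adjusted p 0.841 and 0.858). Egr1 was at 0.307, 0.417, 3.31 and 0.561 FPKM with saline and 15.98, 2.55, 0.379 and 0.149 FPKM with bleomycin. With saline mouse 3 and bleomycin mouse 5 both left out, 3 genes remained tested, and Fos had a change of 1.35 as deposited and 1.18 scaled (adjusted p 0.441 and 0.461). Leukocyte markers held 0.0160 to 0.105% of the sum with saline and 0.191 to 0.578% with bleomycin, macrophage markers 0.0509 to 0.244% and 1.23 to 3.27%. Their part was not tested.

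**Figure D5:**
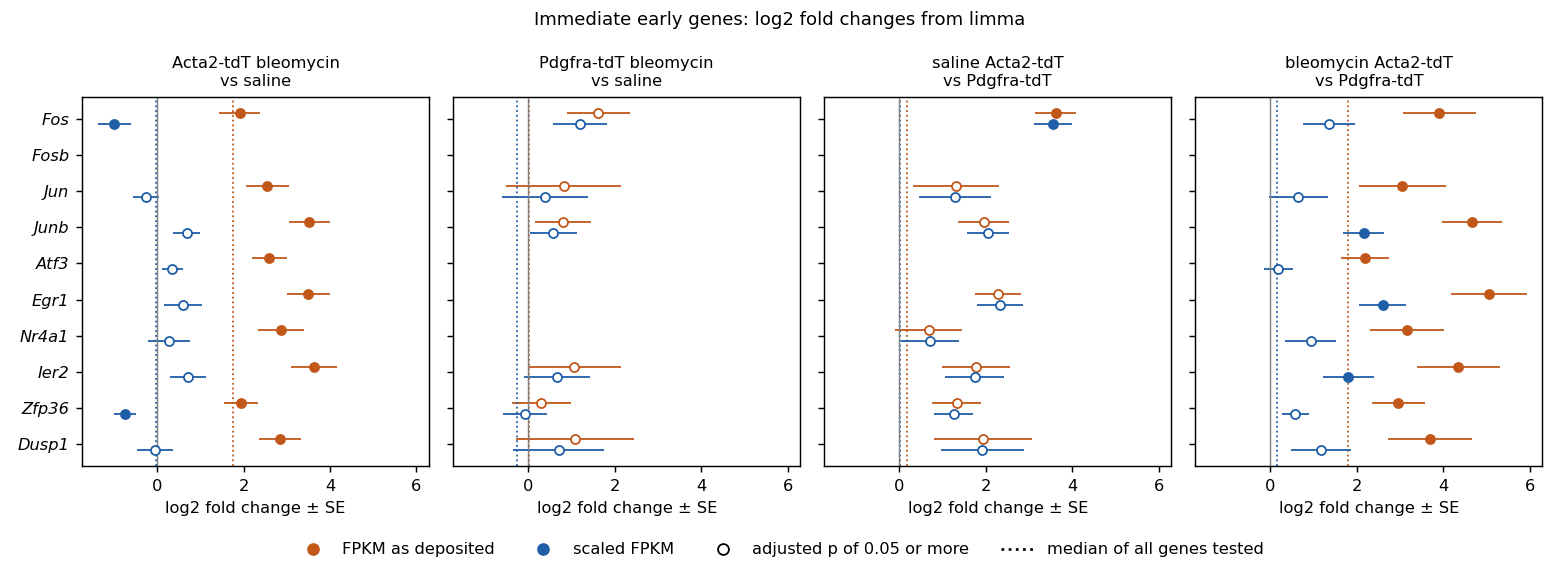
Log2 fold changes ± SE from limma for the genes tested in the 4 comparisons, as deposited (orange) and scaled (blue); filled points have an adjusted p under 0.05 and dotted lines give the median of all genes tested. In Acta2-tdT bleomycin against saline all 9 deposited changes lie to the right of their median, 1.76, and Fos and Zfp36 are the filled scaled points.

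The last comparison tests whether the bleomycin change differed between the lines, as the change in Acta2-tdT cells minus that in Pdgfra-tdT cells. It uses the same mice as the comparisons before it. As deposited, Junb passed (difference 2.71, SE 0.87, limma adjusted p = 0.0235) and the other 8 genes tested did not, where 36.6% of 16605 genes were called with a larger change in Acta2-tdT cells and the median difference of all genes was 1.05. The Junb call was lost without Acta2-tdT bleomycin mouse 7 or 8 or Acta2-tdT saline mouse 2 (adjusted p 0.0510, 0.0546 and 0.0521). It was also lost with a pseudocount of 0.1 and with no filter. Without Pdgfra-tdT bleomycin mouse 5, 6 genes passed (Junb, Egr1, Ier2, Nr4a1, Atf3 and Zfp36), and 49.6% of all genes were called in that direction. With quantile normalization the difference for Junb was 0.55 and did not pass (adjusted p = 0.709).

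On the scaled level none of the 9 genes passed limma's test, and 1, Fos, had an unadjusted p under 0.05. Of all 16605 genes 2.22% were called and 3165 had an unadjusted p under 0.05. The difference for Fos was -2.20 (SE 0.75, adjusted p = 0.132): its scaled level was lower after bleomycin in Acta2-tdT cells, and its Pdgfra-tdT mean was 7.01 with bleomycin and 1.93 with saline. It passed without Pdgfra-tdT bleomycin mouse 8 (-2.68, adjusted p = 0.0426). The scaled differences of the other 8 genes were -0.76 to 0.26.

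Ordered by mean scaled level, Fos stood first in the Acta2-tdT line with saline at 34.8 ± 14.3, then with bleomycin at 17.0 ± 7.55, and after these came the Pdgfra-tdT line with bleomycin at 7.01 ± 5.10 and with saline at 1.93 ± 0.555 (SD, n = 4). Neighbours in this order overlapped in every case, and of the 3 pairs the first passed the test as given above (limma adjusted p = 0.0475) while the second and the last did not (0.107 and 0.776). Egr1 ran 14.5 ± 2.06, 10.9 ± 7.70, 2.23 ± 2.53 and 1.17 ± 1.04 in Acta2-tdT bleomycin, Acta2-tdT saline, Pdgfra-tdT bleomycin and Pdgfra-tdT saline, with overlap between neighbours in that order. Ier2 and Junb had the same order as Egr1. In Acta2-tdT bleomycin mice Ier2 had the highest mean FPKM of the 10, at 137 ± 44.1, and Fosb the lowest, at 0.528 ± 0.511. Fos at 117 ± 30.8, Dusp1 at 114 ± 20.4 and Egr1 at 109 ± 44.5 followed Ier2 and did not differ from it beyond the spread.

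Other AP-1 genes were read from a list of 11, of which 8 were tested in Acta2-tdT cells. In this list and those after it, some genes passed the filter only through the Acta2-tdT mice where they were high, so the counts are a description of the genes tested. Of the 8, Fosl1, Fosl2, Mafk and Batf3 were below 1 FPKM in every saline mouse. As deposited 8 of 8 rose with bleomycin and on the scaled level 3 rose and none fell, where 70.4% of all genes rose as deposited and 23.9% rose and 32.6% fell scaled. Fosl1 and Batf3 were 2 of the 3 that rose scaled. Atf4, the factor of the integrated stress response, which was above 1 FPKM in every mouse of both groups, rose by 1.17 scaled (SE 0.21, limma adjusted p = 0.00103). Fosl1, a late Fos family member, was at 0.0870 to 0.280 FPKM with saline and 7.67 to 14.8 FPKM with bleomycin, with mean scaled levels of 0.239 and 1.59. Fosl2, which encodes Fra-2, had a deposited change of 1.92 and a scaled change of 0.22 that did not pass (limma adjusted p = 0.137). Both genes were tested only through the bleomycin mice, so their changes are a description. Jund had -0.30 (adjusted p = 0.249) scaled and 2.17 (adjusted p = 0.000119) deposited. Between the lines with saline, Jund reached 1 FPKM in no Pdgfra-tdT mouse and was tested only through the Acta2-tdT mice. Its mean scaled levels were 2.87 in Acta2-tdT and 0.400 in Pdgfra-tdT cells, given as a description. After bleomycin Fosl1, below 1 FPKM in every Pdgfra-tdT mouse, and Atf4 were higher in Acta2-tdT cells by 1.19 and 1.94 scaled.

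Among 11 tested of 13 further primary response factors, 4 rose and 3 fell on the scaled level in Acta2-tdT cells, near the 23.9 and 32.6% of all genes. As deposited 10 of the 11 were called higher and none lower, where 70.4% of all genes were higher. A scaled fall is thus not a fall in deposited FPKM. Of the 4, Egr2 and Myc were below 1 FPKM in every saline mouse. Ier3, an early gene tied to cell survival, rose by 1.001 (limma adjusted p = 0.0210) and Ier5, of the same family as Ier2, by 0.97 (limma adjusted p = 0.00754). Nr4a2, a relative of Nr4a1, fell by 0.75 scaled (limma adjusted p = 0.00819) and Klf4, a factor that holds smooth muscle genes in check, fell by 0.86 (limma adjusted p = 0.000170). Their mean scaled levels went from 1.39 to 0.409 and from 1.48 to 0.366, so the bleomycin means lie below the pseudocount of 1. Klf4 was also lower in Acta2-tdT than in Pdgfra-tdT cells after bleomycin, with a change of -1.78, while Myc, below 1 FPKM in every Pdgfra-tdT bleomycin mouse, was higher there by 1.11 and Ier5 by 1.18.

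Feedback regulators, which damp the same signals as Dusp1 and Zfp36, gave 3 higher and none lower of 10 tested in Acta2-tdT cells on the scaled level, where 23.9% of all genes were higher. Dusp6, a phosphatase of ERK, rose by 2.07 (SE 0.21, limma adjusted p = 3.18e-05) from a mean scaled level of 0.616 to 5.76, and it reached 1 FPKM in 1 saline mouse. The other 2, Dusp4 and Dusp5, did so in none and were tested only through the bleomycin mice. Dusp4 was at 0 to 0.0340 FPKM with saline and 1.53 to 4.42 FPKM with bleomycin, with mean scaled levels of 0.0205 and 0.445. Dusp6 thus rose where Dusp1 had -0.05. In the comparison of lines after bleomycin 8 of 10 were higher in Acta2-tdT cells on the scaled level, where 15.8% of all genes were, and 5 of the 8 were below 1 FPKM in every Pdgfra-tdT mouse. The others included Zfp36l1 (2.33, adjusted p = 0.0326), a relative of Zfp36, and Gadd45b (2.03, adjusted p = 0.0297), which was also higher with saline (2.56, adjusted p = 0.0228).

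Of the 15 upstream kinases and factors, 14 were tested in Acta2-tdT cells and 3 rose on the scaled level, a share near the 23.9% of all genes. Map2k2, which encodes the ERK kinase MEK2, rose by 1.69 (limma adjusted p = 0.000671). The other 2, Srf and Mapkapk2, were below 1 FPKM in every saline mouse and were tested only through the bleomycin mice. Srf, the factor behind many immediate early promoters, was at 0.0704 to 0.134 FPKM with saline and 1.47 to 3.23 FPKM with bleomycin, with mean scaled levels of 0.129 and 0.316. Between the lines after bleomycin Map2k2 was higher in Acta2-tdT cells by 2.12, and Map2k1, below 1 FPKM in every Pdgfra-tdT mouse, by 0.74.

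Secreted products of the same response gave 5 higher and 1 lower of 9 tested in Acta2-tdT cells on the scaled level, where 23.9% of all genes were higher and 32.6% lower. Some of the 5, Ccl2 among them, were below 1 FPKM in every saline mouse. Thbs1, which encodes the matrix protein thrombospondin 1, rose by 2.996 (SE 0.27, limma adjusted p = 2.37e-05) from a mean scaled level of 3.60 to 36.5, and Ctgf, a matricellular growth factor gene, rose by 1.72 (adjusted p = 0.00219). Il6, an inflammatory cytokine, fell by 1.25 (adjusted p = 2.44e-05) from 1.60 to 0.0949. Thbs1 and Ctgf were also higher in Acta2-tdT than in Pdgfra-tdT cells after bleomycin, by 4.64 and 3.33, where Ctgf was below 1 FPKM in every Pdgfra-tdT mouse and Thbs1 in all but 1. Their scaled bleomycin changes differed between the lines by 3.63 and 2.18 (adjusted p 0.00228 and 0.0282).

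Heat shock genes, which encode chaperones and respond to many kinds of stress, rose on the scaled level in Acta2-tdT bleomycin mice in 8 of 8 tested of 10, where 23.9% of all genes rose. Of the 8, Hsph1 was below 1 FPKM in every saline mouse. Their median change was 0.86, beside 0.27 for the 9 immediate early genes and -0.02 for all genes tested. Hspa8 rose by 1.96 (SE 0.24, limma adjusted p = 9.20e-05) and Hspe1 by 1.09 (SE 0.28, limma adjusted p = 0.00764). Between the lines Hspb1, a small heat shock protein gene abundant in muscle, was higher in Acta2-tdT cells by 2.57 with saline and 3.28 after bleomycin, and Hsp90aa1 by 1.47 after bleomycin.

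Over the 16 mice the genes moved together to different degrees. Among the 8 genes that reached 1 FPKM in 8 or more mice, pairwise Pearson correlations of scaled log2 levels ran from 0.50 for Fos and Nr4a1 to 0.93 for Jun and Dusp1, with 0.91 for Egr1 and Ier2. The points share the line and treatment groups and the 2 mice that stood apart, so these values are a description. Of 4798 other coding genes, those most like the mean of the 8 were 2200002D01Rik (r = 0.97), Zfp36l1 (r = 0.96), Tsc2 (r = 0.95), Rbm25 (r = 0.95) and Cdk2ap2 (r = 0.95).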

How the data were processed

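RNA of sorted tdTomato-positive lung cells, amplified with SmartSeq2, was measured in 16 mice, 4 a group. Per the labels and methods, the authors aligned reads with TopHat2 2.1.1 and Bowtie2 2.2.9 to GRCm38 (mm10) and computed FPKM with Cufflinks 2.1.1 (versions from the submitters' processing notes), and deposited FPKM with bounds for each mouse. Counts were not used here, so depth is unknown, and the fragments given are only those implied by the bounds.

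FPKM were summed per Ensembl gene over 49534 records (49452 genes, 15 left out for a failed status in a mouse). They were used as deposited and scaled to a nuclear protein-coding sum of 49122.5, the median over mice. Genes with FPKM of 1 or more in 4 or more mice of a comparison were tested with limma 3.58.1 (R 4.3.3) on log2(value + 1), with Benjamini-Hochberg adjustment over all genes tested and a threshold of 0.05. The pseudocount of 1 understates changes of low genes, and scaled levels in Acta2-tdT bleomycin mice, whose factors were 0.106 to 0.213, lie nearest to it. Fits held the 8 mice compared, or all 16 for the difference between lines. Mice were the replicates, and no 2 mice had identical values.

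The 10 genes and all lists were chosen with earlier results of these data known. Named from the pathway lists were Fosl2, Jund and, in each comparison, up to 2 genes with the largest rise and 2 with the largest fall among those past the threshold on the scaled scale. The 5 most similar genes were ranked by Pearson correlation over 16 mice. On simulated data for Acta2-tdT bleomycin against saline (12523 genes, scaled, 200 changed), 113, 182 and 193 changed genes were found at log2 changes of 1, 2 and 3, with 3, 16 and 13 false calls. In the data 56.6% of genes were called in this comparison, far more than were changed here, and no other comparison was simulated. These rates therefore do not carry over to the data. Alternatives were a pseudocount of 0.1, no filter, all mice in 1 fit, quantile normalization, scaling without the 100 most abundant genes, a replicate block, leaving out each mouse and, chosen after seeing the data, leaving out both Pdgfra-tdT mice that stood apart. Gene positions are those of the deposited tables, untranslated regions follow GENCODE vM21 and promoters RefSeq (GRCm38.p6). Scripts used Python 3.11.15, pandas 2.3.3, NumPy 2.4.6 and matplotlib 3.10.9.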

Additional observations from a re-analysis of the deposited data

Results flagged for a closer look

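In groups of 4 mice, 80 sets of values were searched for a mouse whose gap to the nearest other exceeded Dixon's 95% limit, and 11 had one, where chance gives about 1 in 20. All values here are log2(value + 1). In 10 of the 11 the mouse was Pdgfra-tdT saline mouse 3, as the highest of its group. For Jun it was at 5.08 as deposited, against 0.70 to 0.99 in the other 3 mice, and at 4.80 scaled, against 1.01 to 1.39. Dusp1 was at 5.58 (others 0.67 to 1.14) and 5.30 scaled (0.98 to 1.57), and Zfp36 at 3.12 (0.97 to 1.13) and 2.87 scaled (1.32 to 1.56). As deposited, Ier2 was at 3.77 (0.64 to 1.09), Nr4a1 at 3.35 (0.21 to 0.60), Junb at 2.26 (0.12 to 0.48) and Egr1 at 2.11 (0.39 to 0.64). The remaining value was scaled Egr1 in Acta2-tdT bleomycin mouse 8, at 4.22 above 3.84 to 3.88 in mice 5, 6 and 7.

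The bleomycin change of Junb as deposited differed between the lines by 2.71 (limma adjusted p = 0.0235), larger in Acta2-tdT cells. Scaled, the difference was 0.10 (adjusted p = 0.954).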

How the results depend on the processing

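Among single-gene results under settings other than leaving out 1 mouse, 327 kept direction and side of the threshold, 7 gained a call, 21 lost one and 13 changed sign. Quantile normalization of the deposited values left 4 of 9 genes called in Acta2-tdT bleomycin against saline and 3 of 9 in bleomycin Acta2-tdT against Pdgfra-tdT cells, and turned Fos to -0.38 and Zfp36 to -0.48 in the first. For the difference between lines it gave 0 called, with Fos -1.51, Zfp36 -0.31, Jun -0.18 and Dusp1 -0.088. With no filter, 0 genes were called for Acta2-tdT scaled, saline lines as deposited and the deposited difference between lines. With a pseudocount of 0.1 that difference had 0 called and Fos at -0.029, and scaled Junb and Ier2 were at -0.40 and -0.086. In 1 fit of all 16 mice 0 genes were called for Acta2-tdT scaled and 3 for saline lines scaled. Scaling without the 100 most abundant genes put the scaled difference for Junb at -0.057. With both Pdgfra-tdT mice that stood apart left out, 6 genes were called for the deposited difference, its scaled value was -0.31 for Junb and -0.00403 for Ier2, and scaled Zfp36 in Pdgfra-tdT cells was 0.17. The cause of these changes was not tested.

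Leaving out 1 mouse at a time gave 0 to 2 genes called for Acta2-tdT scaled, 0 to 7 and 1 to 7 for saline lines as deposited and scaled, and 0 to 6 and 0 to 1 for the deposited and scaled difference between lines. Values that changed sign ranged from -0.059 to 0.52 (Nr4a1) and -0.30 to 0.24 (Dusp1) for Acta2-tdT scaled, from -0.18 to 0.82 and -0.22 to 0.30 for Zfp36 in Pdgfra-tdT cells as deposited and scaled, and from -0.012 to 0.37 for scaled Atf3 between bleomycin lines. For the difference between lines they ranged from -0.39 to 0.76 for deposited Fos and, scaled, from -0.41 to 0.80 (Nr4a1), -0.12 to 0.72 (Egr1), -0.32 to 0.43 (Junb) and -0.50 to 0.56 (Ier2).

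Replicate numbers did not pair mice of the lines (r of deviations -0.307 to 0.157). With the replicate block, 0 genes were called between saline lines as deposited (Fos adjusted p = 0.0557), and Ier2 was lost between bleomycin lines scaled (adjusted p = 0.0684). No other call of the 10 genes changed with the block.

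Counts over all genes moved with the same choices. Between saline lines 237 genes as deposited became 59 without a filter, 126 in 1 fit and 36 with the block, and 279 scaled became 106 without a filter, 182 without the top 100 and 105 with the block. Leaving out 1 mouse gave 14 to 2141 and 25 to 2850, the highest without Pdgfra-tdT saline mouse 3. For Acta2-tdT scaled, 7083 became 16928 without a filter, of which 14244 were lower. Between bleomycin lines 9553 became 4185 with quantile normalization, and 4012 scaled became 1291 without a filter, 1715 to 5721 without 1 mouse. The deposited difference between lines went from 6605 to 3463 with a pseudocount of 0.1 and 1595 with quantile normalization, and the scaled one from 369 to 1231, to 158 without a filter, 232 without the top 100 and 2468 without both mice. Leaving out 1 mouse gave 3739 to 9166 as deposited and 71 to 2058 scaled. In Pdgfra-tdT cells 9 and 10 genes became 2 without a filter and 15 and 53 in 1 fit, 0 to 69 and 0 to 41 without 1 mouse, and 0 without both mice that stood apart.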
